A study of Mus musculus with 16 samples.

Results

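The transcripts described here are 7 long noncoding RNAs of brain tissue, Cdr1os, Oip5os1, Meg3, Rian, Mirg, Snhg11 and Miat, measured in microglia isolated from the olfactory bulb (OB) of mice. They are 7 of the 57010 genes in the count table and were selected on their measured values in these same libraries, in view of the difference between genotypes. Their genotype differences are therefore given as a description without a test. Microglia were enriched from the OB of mice aged 2 months with magnetic beads against CD11b, a surface protein of myeloid cells, and their total RNA was sequenced after removal of ribosomal RNA. WT mice were C57BL/6J animals, and APP-NL-G-F mice, labelled KI, carry an App knock-in on the same background, with the Alzheimer changes known as Swedish (NL), Arctic (G) and Beyreuther/Iberian (F). There were 16 libraries, 4 from females (f) and 4 from males (m) of each genotype. The beads enrich microglia but do not exclude other cells or their fragments, and the knock-in acts in every cell that expresses App.

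Long noncoding RNAs are transcribed and mostly spliced like messenger RNAs but are not known to encode a protein. Several of the abundant ones in brain act on microRNAs, on chromatin or on splicing factors. Cdr1os is the transcript of the Cdr1 locus on the X chromosome, from which the circular RNA Cdr1as, a carrier of many binding sites for the microRNA miR-7, is made in neurons. Oip5os1, also called Cyrano, is known to direct the destruction of miR-7, and Cdr1as RNA is kept at its level in brain through that destruction. Meg3, Rian and Mirg are noncoding RNAs transcribed in the same direction from the maternal copy of the imprinted Dlk1-Dio3 region, and Rian and Mirg are hosts of small nucleolar RNAs and microRNAs. Snhg11 is a small nucleolar RNA host gene expressed in neurons, and Miat, also called Gomafu, is a nuclear RNA of neurons that binds splicing factors.

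The miR-7 sequences are shown because they link Cdr1os and Oip5os1. The mature forms are taken from RefSeq, with the seed (bases 2 to 8) in capitals, and both carry the same seed.
mmu-miR-7a-5p: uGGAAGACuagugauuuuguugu
mmu-miR-7b-5p: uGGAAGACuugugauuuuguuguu

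Exons of the 7 transcripts were searched on the transcribed strand for GTCTTCC, the DNA letters that pair with this seed. Cdr1os held 125 matches in 24659 exonic bases, or 5.07 per kb, and 0 of the 1728 tested long noncoding RNA genes with at least 1000 exonic bases held more per kb. All 125 lay in 1 annotated exon (GRCm39, chrX:60218734-60237768), and 79 of them lay within the 1554 bases of Cdr1, which is annotated on the opposite strand of that exon. Oip5os1 held 2 matches in 12210 bases, Meg3 held 3, Rian, Mirg and Snhg11 held 2 each, and Miat held 1. Of all 1728 such genes 28.5% held at least 1 match, so only Cdr1os stood apart in number. A match is a string of letters and not a measured binding site.

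The match of Oip5os1 with the longest further pairing to miR-7a is shown beside that of Cdr1os with the longest, each on its transcribed strand in GRCm39. Capitals mark the seed match at the right and the longest unbroken run upstream of it that is complementary to the rest of miR-7a.
Oip5os1, chr2:119432613-119432642: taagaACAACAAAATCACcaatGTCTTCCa
Cdr1os, chrX:60227264-60227293: caacgtcttccACAAAATtcagGTCTTCCa

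The upstream run measured 13 bases in Oip5os1 and 7 bases in Cdr1os, against 4 in Meg3 and 2 in Miat. The letters of the Oip5os1 site can thus pair with miR-7a at its seed and again along most of its other end. The Cdr1os site shown overlaps a further seed match, which appears in lower case near its left end.

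The libraries held between 9052932 and 18117286 counts. The label f was borne out by Xist, the RNA of the inactive X chromosome, which lay between 547.4 and 862.3 CPM (counts scaled to library size) in every f library and did not pass 0.448 CPM in any m library. App itself was counted at 370.5 to 462.3 CPM in WT and 388.2 to 422.8 CPM in KI libraries (log2 fold change −0.07, SE 0.0478), so its level does not check the genotype label. The authors report that they checked the groups by hand in reads aligned to App, looking for the NL, G and F mutations. How reads of the knock-in sequence were assigned was not examined here. The CD11b enrichment was visible in the 13 microglia markers, which summed to between 23480 and 27900 CPM in WT and between 23380 and 27140 CPM in KI libraries, with none of the 13 called between genotypes. The 18 neuron markers summed to between 540 and 699.5 CPM in WT and between 638.7 and 924.2 CPM in KI libraries, and none of them was at 0 in all libraries. Library sizes behind CPM were adjusted by TMM (trimmed mean of M-values).

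Per length, the 7 transcripts differed by more than an order of magnitude, in RPKM (CPM per 1000 exonic bases) over all 16 libraries. Exonic lengths were those of gencode vM39, while reads were counted on vM32, so the order by RPKM is approximate. Meg3 stood first at 22.9 ± 9.21 RPKM (SD, n = 16), followed by Snhg11 at 16.4 ± 6.20 RPKM and Oip5os1 at 15.2 ± 1.42 RPKM. Over all libraries the spreads of these 3 neighbours overlapped, although Snhg11 was below Meg3 within every library. The means of Oip5os1 and Snhg11 stood in opposite order in the genotypes. Oip5os1 was at 14.46 ± 0.950 RPKM and Snhg11 at 12.2 ± 4.93 RPKM in WT, and in KI libraries at 15.97 ± 1.46 and 20.5 ± 4.30 RPKM (SD, n = 8 each), with ranges that overlapped in both genotypes. Cdr1os followed at 7.76 ± 2.71 RPKM, below Oip5os1 by more than either spread. Rian at 1.47 ± 0.650 RPKM, Miat at 0.980 ± 0.332 RPKM and Mirg at 0.895 ± 0.365 RPKM were lower. Their ranges of spread overlapped, although Mirg was below Rian within every library. By read number, Meg3, Oip5os1, Cdr1os and Snhg11 ranked 2, 3, 4 and 6 by mean log2 CPM among the 2007 tested long noncoding RNA genes. Mean log2 CPM placed Meg3 above 98.7% and Mirg above 48.4% of all 18227 tested genes.

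Cdr1os showed the clearest separation of the genotypes. It lies on the plus strand of the X chromosome (chrX:60159705-60247391). Its level in WT females was 138.0, 143.1, 132.0 and 113.0 CPM, and in WT males 149.1, 121.7, 125.0 and 112.8 CPM. Levels in KI females were 222.8, 265.5, 233.6 and 226.3 CPM, and in KI males 294.2, 258.5, 254.6 and 270.9 CPM. Every one of the 8 KI libraries lay above every WT library, the lowest of the former at 222.8 CPM and the highest of the latter at 149.1 CPM. WT libraries averaged 129.3 ± 13.5 CPM and KI libraries 253.3 ± 24.5 CPM (SD, n = 8 each). The fold was 1.96, or 0.97 on the log2 scale (SE 0.0674). Such a complete upward separation occurred for 25 of 18227 tested genes, or 0.137%. The spread of Cdr1os within a group was small, with an SD of 0.136 on the log2 scale against a median of 0.239 over all tested genes.

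**Figure D1:**
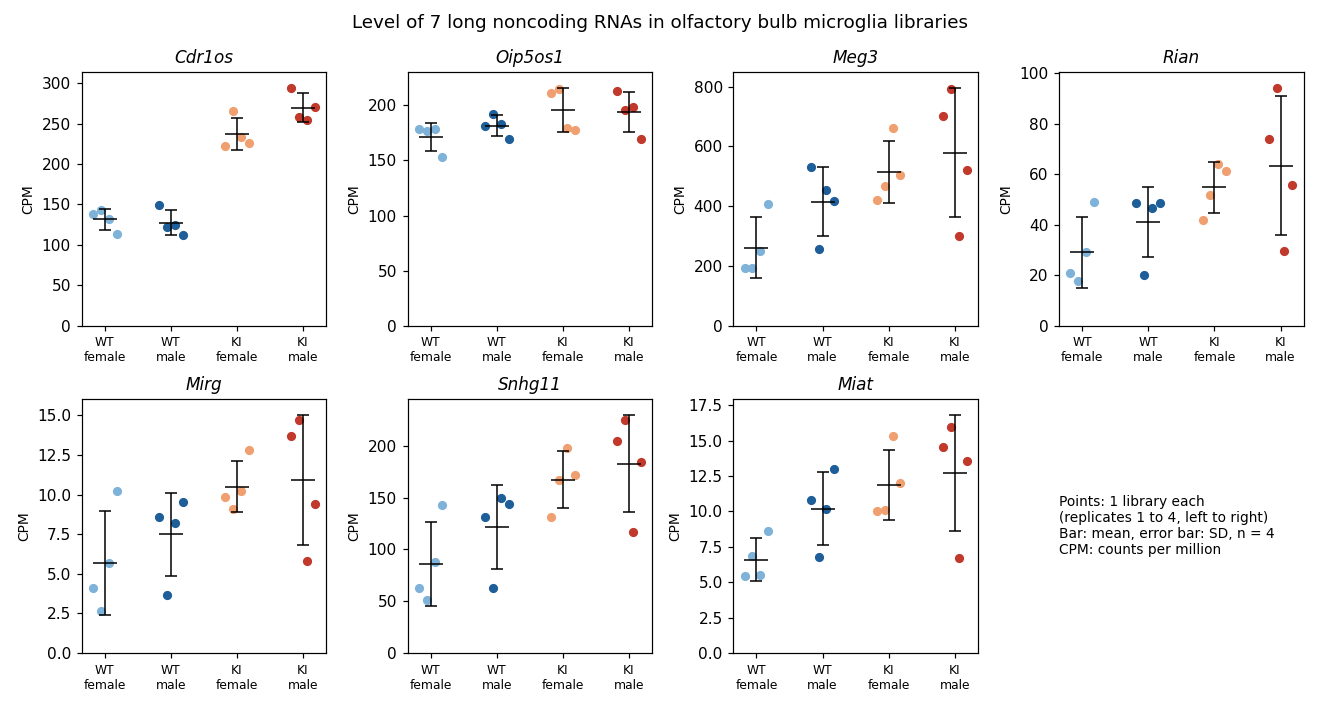
Level of each transcript in CPM (linear axis from 0) in the 4 groups of 4 libraries, with 1 point per library, the mean as a bar and the SD as an error bar. Cdr1os of APP-NL-G-F (KI) libraries, from 222.8 CPM upwards, lies above all WT libraries, at most 149.1 CPM, while the genotype ranges of the other 6 transcripts overlap.

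Counts of Cdr1, annotated on the minus strand at chrX:60227611-60229164 inside the Cdr1os exon named above, moved with those of Cdr1os. Cdr1 was counted at 17.1, 19.9, 8.07 and 9.48 CPM in WT females and at 15.7, 15.6, 10.2 and 7.82 CPM in WT males. In KI libraries it reached 25.8, 30.5, 19.7 and 20.5 CPM in females and 38.9, 36.0, 21.7 and 20.5 CPM in males. The libraries numbered 1 and 2 in the labels were thus higher than those numbered 3 and 4 in each group, and 7 of 8 KI libraries lay above the highest WT library. Cdr1 averaged 10.2% of the Cdr1os level, between 6.11% and 13.9% over the libraries. The library kit marks strand, but the strand setting of the counting is not stated, so reads of these overlapping genes cannot be told apart with certainty, and no value is given for the circular RNA.

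Oip5os1 was the flattest of the 7. It lies on chromosome 2 (chr2:119424396-119437983, plus strand). WT females had 178.3, 176.4, 178.3 and 152.8 CPM and WT males 181.3, 192.6, 182.7 and 169.5 CPM. KI females had 211.6, 214.9, 179.6 and 177.5 CPM and KI males 212.9, 196.2, 198.4 and 169.1 CPM. The groups overlapped, although 5 of 8 KI libraries lay above the highest WT library. The means were 176.5 ± 11.6 and 195.0 ± 17.8 CPM (SD, n = 8 each), a difference of 0.14 on the log2 scale (SE 0.0570), and Oip5os1 was the only one of the 7 transcripts under the call rule of a false discovery rate (FDR) below 0.1 with an absolute log2 fold change above 0.5. In CPM the ratio of Oip5os1 to Cdr1os was 137.4% ± 13.1 in WT and 77.5% ± 9.06 in KI libraries.

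Meg3, Rian and Mirg lie within 209 kb on chromosome 12 (chr12:109506877-109538165, chr12:109570242-109628150 and chr12:109696198-109715898, all on the plus strand). Meg3 was at 194.7, 192.0, 249.3 and 408.2 CPM in WT females and at 532.4, 257.6, 453.2 and 417.6 CPM in WT males. It was at 420.7, 467.6, 659.9 and 505.8 CPM in KI females and at 700.8, 793.2, 301.7 and 522.0 CPM in KI males. The genotypes overlapped widely over both sexes, with KI male replicate 3 below 4 of the WT libraries. Among females every APP-NL-G-F library was above every WT library. How many of all tested genes separated so among females was not counted, so nothing is read from it. The means were 338.1 ± 130.1 and 546.5 ± 161.1 CPM (SD, n = 8 each), and the log2 fold change was 0.73 (SE 0.202).

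Rian was at 20.8, 17.7, 29.3 and 49.0 CPM in WT females, and at 48.5, 20.2, 46.9 and 48.7 CPM in WT males. KI females had 41.9, 51.9, 64.2 and 61.2 CPM and KI males 74.0, 94.3, 29.5 and 55.7 CPM. Its high and low libraries were those of Meg3: KI male replicate 2 was the highest of all for both, and male replicate 3 the lowest of its genotype. The log2 fold change of Rian was 0.77 (SE 0.235). Mirg, the least abundant of the 3, ranged from 2.66 to 10.3 CPM in WT (median 6.95) and from 5.79 to 14.7 CPM in KI libraries (median 10.04), with a log2 fold change of 0.72 (SE 0.241).

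Although Meg3 varied by up to 2.77-fold among WT libraries, the proportions between the 3 neighbours were steadier. Rian stood at 10.3% ± 1.497 of the Meg3 CPM in WT and at 10.7% ± 0.922 in KI libraries, and Mirg stood at 18.5% ± 1.85 and 18.6% ± 2.68 of the Rian CPM (SD, n = 8 each). Mirg to Meg3 was the loosest of the 3 ratios, at 1.93% ± 0.432 in WT and 1.99% ± 0.308 in KI libraries. These ratios overlapped between the genotypes.

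Snhg11, on chromosome 2 (chr2:158217558-158228071, plus strand), followed the same libraries from another chromosome. It was at 62.6, 51.7, 88.0 and 142.5 CPM in WT females and at 131.6, 62.4, 149.7 and 144.1 CPM in WT males. It was at 131.3, 167.5, 198.3 and 171.8 CPM in KI females and at 204.5, 225.4, 116.9 and 184.3 CPM in KI males. The genotypes overlapped, with 6 of 8 KI libraries above the highest WT library and all 8 above the WT median. The means were 104.1 ± 42.1 and 175.0 ± 36.6 CPM (SD, n = 8 each), with a log2 fold change of 0.77 (SE 0.203). In CPM, Snhg11 stood at 297.4% ± 14.1 of Rian in WT and at 308.5% ± 46.5 in KI libraries. Gm25129, which overlaps Snhg11, was at 0.622 ± 0.303 CPM in WT and 0.822 ± 0.179 CPM in KI libraries and was not called (log2 fold change 0.49, SE 0.297, edgeR FDR = 0.343).

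Miat, on the minus strand of chromosome 5 (chr5:112361094-112377261), ranged from 5.44 to 13 CPM in WT (median 7.73) and from 6.72 to 15.97 CPM in KI libraries (median 12.8). The genotypes overlapped, and again KI male replicate 3 was the lowest of its genotype. The log2 fold change was 0.59 (SE 0.180).

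In all, 6 of the 7 transcripts met the call rule as higher in APP-NL-G-F mice, which the choice of the transcripts used. Over all tested genes 8.64% were called and 4.33% were called higher, and nothing is read from the comparison with these shares. The median log2 fold change of the 7 was 0.73, beside −0.001 over all 18227 tested genes. Of the 2007 tested long noncoding RNA genes, 5.98% were called higher and 22% lower. The count of 6 fell to 3 without KI male replicate 2 or without WT female replicate 1. Those fits called 1101 and 1121 genes in all, against 1574 with every library. The count of transcripts was 4 without KI female replicate 3, WT female replicate 3 or WT male replicate 2, fits that called 1116, 1283 and 1141 genes. Cdr1os, Meg3 and Snhg11 met the rule in each of these fits.

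**Figure D2:**
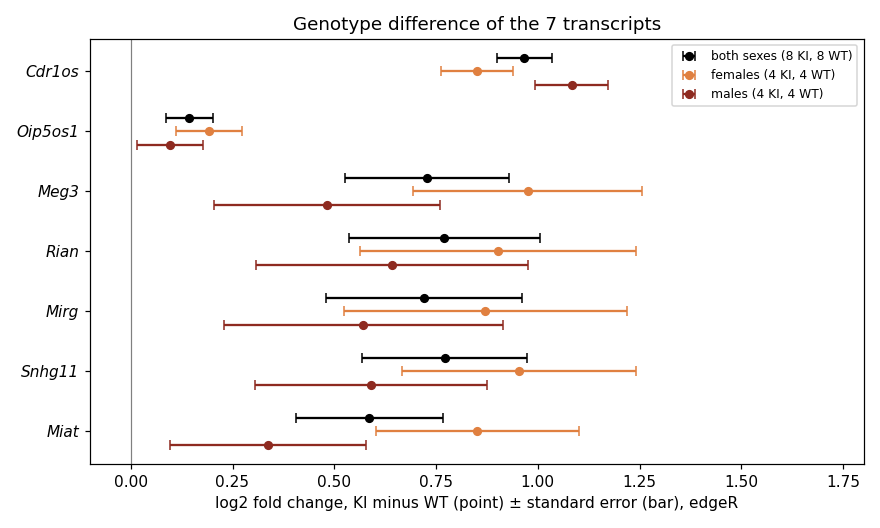
Log2 fold change of each transcript, KI (APP-NL-G-F) minus WT, with its standard error, for both sexes together, females and males. Cdr1os is at 0.97 with the shortest bars but those of Oip5os1, which is at 0.14, and the other 5 transcripts lie between 0.59 and 0.77 with wide bars, all for both sexes together. Those 5 lie between 0.85 and 0.98 in females and between 0.34 and 0.64 in males.

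Within females the log2 fold changes were 0.85 for Cdr1os, 0.98 for Meg3, 0.90 for Rian, 0.87 for Mirg, 0.95 for Snhg11 and 0.85 for Miat. Within males they were 1.08 for Cdr1os, 0.48 for Meg3, 0.64 for Rian, 0.57 for Mirg, 0.59 for Snhg11 and 0.34 for Miat. Whether these differed was tested by the genotype-by-sex interaction, which the choice of the transcripts did not use. None of the 7 was called in edgeR, DESeq2 or limma voom, and none had an unadjusted p under 0.05 in any of these tools. In edgeR without the filter on counts, Meg3 alone of the 7 had an FDR below 0.1 (0.496, SE 0.111, FDR = 0.00143), and it stayed under the fold rule. Over all genes 0.0274% were called in edgeR. The interaction of Cdr1os was −0.23 (95% interval −0.50 to 0.03, edgeR FDR = 0.898), and that of Meg3 was 0.49 (95% interval −0.33 to 1.32, edgeR FDR = 0.977). The interval for Meg3 is wide enough to hold a difference between the sexes as large as its genotype difference.

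Between the sexes, all 7 estimates were below 0, that is lower in females, but none was called by edgeR, DESeq2 or limma voom, and none had an unadjusted p under 0.05 in any of them. Over all genes 0.0604% were called in edgeR. Meg3 had a log2 difference of −0.42 between females and males (95% interval −0.84 to 0.00, edgeR FDR = 0.759). In edgeR without the filter on counts its FDR was 0.0637 (−0.42, SE 0.104), still under the fold rule. Miat had −0.35 (95% interval −0.72 to 0.03, FDR = 0.772) and Cdr1os −0.07 (95% interval −0.21 to 0.07, FDR = 0.850). For Cdr1os, which lies on the X chromosome, the interval over both genotypes together excludes a difference of more than 0.21 in either direction. Within a genotype that size is not excluded, with 0.05 in WT (95% interval −0.14 to 0.24) and −0.19 in KI (95% interval −0.37 to 0). Within WT, where edgeR called 0.938% of genes between the sexes, Meg3 had −0.67 (95% interval −1.26 to −0.08, edgeR FDR = 0.381) and Miat −0.62 (95% interval −1.15 to −0.09, FDR = 0.369), intervals that hold only values below 0 before adjustment. Within KI, where 0.0549% were called, Meg3 had −0.17 (95% interval −0.76 to 0.41) and Miat −0.11 (95% interval −0.60 to 0.39). None of the 7 was called in either genotype.

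The labels number the libraries of each group from 1 to 4, and the genotype difference was also taken in replicates 1 and 2 and in replicates 3 and 4 separately, a division chosen after the data were seen. The library names in the labels carry numbers 1 to 8 for replicates 1 and 2 and 9 to 16 for replicates 3 and 4, and what either number stands for is not stated. The replicate number and the set of libraries therefore cannot be told apart. Cdr1os differed by 0.91 in mean log2 CPM among replicates 1 and 2 and by 1.03 among replicates 3 and 4 (4 libraries of each genotype). Meg3 differed by 1.10 and 0.36, Rian by 1.34 and 0.24, Mirg by 1.39 and 0.16, Snhg11 by 1.31 and 0.36, and Miat by 0.77 and 0.35. WT Meg3 averaged 294.2 ± 161.7 CPM in replicates 1 and 2 and 382.1 ± 90.6 CPM in replicates 3 and 4, while KI Meg3 averaged 595.6 ± 179.9 and 497.3 ± 147.6 CPM. The genotype-by-number interaction called 0% of genes in edgeR, with 1462 genes under an unadjusted p of 0.05. It called none of the 7, of which 3 were under that p. The estimates of those 3 were −0.97 for Rian (SE 0.420, FDR = 0.612), −1.11 for Mirg (SE 0.414, FDR = 0.593) and −0.86 for Snhg11 (SE 0.328, FDR = 0.596). Fitted on replicates 3 and 4 alone, where 80 genes were called in all, only Cdr1os of the 7 met the genotype call rule. On replicates 1 and 2 alone, where 2503 genes were called in all, every one but Oip5os1 did. The fit of all 16 libraries called 1574, so the calls shifted over all genes and not only among the 7. The number itself, replicates 3 and 4 minus 1 and 2 with genotype and sex in the edgeR fit, called 0.73% of genes and none of the 7. It called Cdr1, which fell by 0.79 on the log2 scale (SE 0.0900, FDR = 0.000535).

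Over the 16 libraries the transcripts fell into 3 patterns. Meg3, Rian, Mirg, Snhg11 and Miat varied together, with Pearson r of log2 CPM from 0.83 (Mirg and Miat) to 0.98 (Rian and Snhg11). Cdr1os had r between 0.50 and 0.60 with these 5 transcripts, and Oip5os1 between 0.11 and 0.21. When the 4 group means were subtracted, the 5 transcripts still had r between 0.73 and 0.97 with each other. Cdr1os then had r between −0.27 and −0.04 with them and 0.47 with Oip5os1. All of these values share libraries and their scaling and are given as descriptions.

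**Figure D3:**
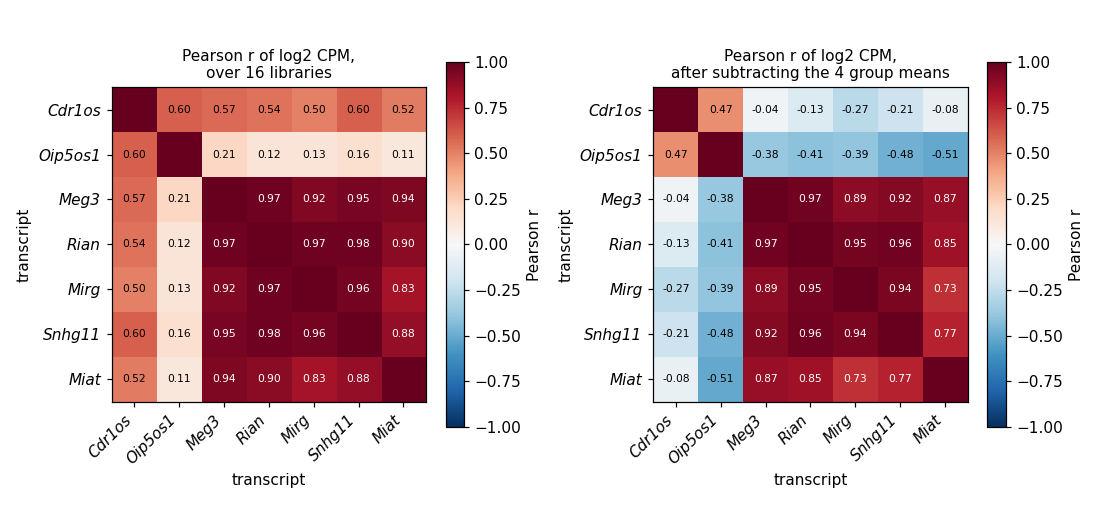
Pearson r of log2 CPM for every pair of the 7 transcripts over 16 libraries (left) and after the means of the 4 groups are subtracted (right), on a colour scale from −1 to 1. The block of Meg3, Rian, Mirg, Snhg11 and Miat keeps r of 0.73 or more on the right, where Cdr1os and Oip5os1 have values below 0 with all 5.

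Across the libraries these 5 transcripts also moved with markers of inhibitory neurons of the OB. The mean log2 CPM of 18 neuron markers was 4.04 ± 0.0900 in WT and 4.26 ± 0.175 in KI libraries (SD, n = 8 each). None of the 18 was called, but 16 had a log2 fold change above 0. Several had an FDR below 0.1 and missed only the fold rule, among them Snap25 (0.38, edgeR FDR = 0.00512) and Syt1 (0.43, FDR = 0.00796). Of 12 tested markers of inhibitory neurons of the OB, 4 were called higher, beside 4.33% of all tested genes. The 4 were Synpr, a synaptic vesicle protein, Meis2 and Dlx6, transcription factors of OB interneurons, and Penk, the enkephalin precursor. The summed level of the inhibitory neuron list ranged from 200 to 326.4 CPM in WT and from 275.1 to 461.5 CPM in KI libraries, and no marker of the list was at 0 in all libraries. Its mean log2 CPM was higher by 0.435 in KI than in WT libraries, and that of the oligodendrocyte markers by 0.433. Of 10 neuroblast markers 2 were called higher (Dcx and Igfbpl1, 79.9 to 93.9 CPM summed in WT and 83.0 to 125.8 CPM in KI libraries), and of 9 oligodendrocyte markers 1 was (Mog, 234.2 to 436.5 CPM summed in WT and 286.1 to 426.5 CPM in KI libraries). No marker of projection neurons, astrocytes, oligodendrocyte precursors, olfactory ensheathing cells, endothelial cells, pericytes and fibroblasts or border macrophages was called.

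With the mean log2 CPM of the inhibitory neuron markers, Pearson r over 16 libraries was 0.96 for Meg3 (Spearman rho 0.95), 0.96 for Rian (rho 0.94), 0.90 for Mirg (rho 0.84), 0.93 for Snhg11 (rho 0.94) and 0.91 for Miat (rho 0.92). Within the 8 WT libraries r was 0.93 for Meg3 and within the 8 KI libraries 0.99. Without the 2 libraries farthest from the median score, WT male replicate 2 and KI male replicate 2, r of Meg3 was 0.97. With the projection neuron markers r of Meg3 was 0.30 over all libraries, 0.48 within WT and −0.16 within KI libraries, and within KI libraries r was −0.31 for Rian and −0.32 for Snhg11. With the oligodendrocyte precursor markers r of Meg3 was 0.04 within WT and 0.92 within KI libraries, and that of Miat 0.13 and 0.95. With the oligodendrocyte markers r of Meg3 was −0.88 within WT and 0.04 within KI libraries. For Meg3, Rian, Mirg, Snhg11 and Miat, r with the neuroblast markers over all libraries ran from 0.74 (Mirg) to 0.83 (Meg3). Their r with the microglia markers, after the group means were subtracted, ran from −0.76 (Snhg11 and Miat) to −0.57 (Mirg). The inhibitory neuron list was thus not the only one with high r, over all libraries or within a genotype.

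Cdr1os had r of 0.68 (rho 0.71) with the inhibitory neuron markers over all libraries, but −0.12 within WT and 0.27 within KI libraries. Oip5os1 had r of 0.27 (rho 0.23) over all libraries, and 0.57 (rho 0.48) with the mean of the microglia markers, the highest positive value of the 7 with that list. Within a genotype (8 libraries each) Cdr1os and Oip5os1 thus had r of at most 0.27 with the inhibitory neuron markers. Cdr1os had r of 0.37 within WT and 0.44 within KI libraries with the neuroblast markers. With the olfactory ensheathing cell markers it had 0.72 within WT and 0.14 within KI libraries, and 0.67 after the group means were subtracted.

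**Figure D4:**
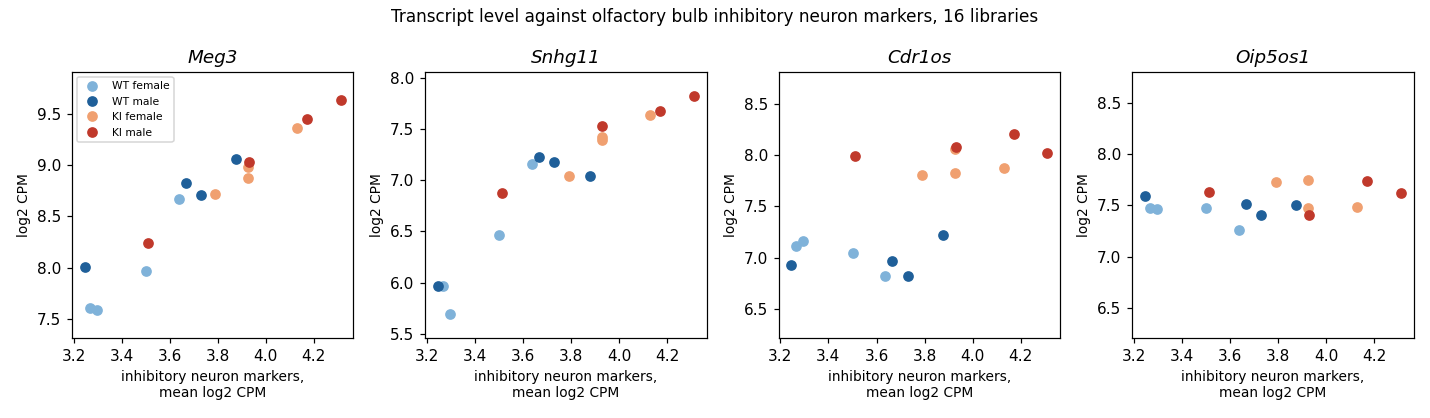
Log2 CPM of Meg3, Snhg11, Cdr1os and Oip5os1 against the mean log2 CPM of 12 OB inhibitory neuron markers, with 1 point per library coloured by group and the same height of axis in each panel. Meg3 and Snhg11 lie along 1 rising line through both genotypes (r of 0.96 and 0.93), Cdr1os forms 2 levels by genotype, and Oip5os1 is flat.

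With the mean of the 18 neuron markers as a further term in the edgeR fit, the genotype difference of Cdr1os was 0.98 (SE 0.0868). The same fit gave 0.26 for Meg3 (SE 0.210), 0.32 for Rian (SE 0.261), 0.34 for Mirg (SE 0.287), 0.40 for Snhg11 (SE 0.218) and 0.17 for Miat (SE 0.192). With the inhibitory neuron markers as the term, chosen after the data were seen, Cdr1os was at 0.96 (SE 0.0926), Meg3 at −0.11 (SE 0.0919), Rian at −0.20 (SE 0.115), Mirg at −0.13 (SE 0.194), Snhg11 at 0.05 (SE 0.142) and Miat at −0.08 (SE 0.146). In both fits Cdr1os alone of the 7 met the call rule. Calls over all genes also fell, from 1574 to 153 with the neuron term and to 38 with the inhibitory neuron term. Marker levels differed between the genotypes themselves, and in such bulk libraries more cells of a type and more RNA per cell cannot be told apart.

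The genes most like each transcript were taken by Pearson r of log2 CPM over the 16 libraries. Those of Cdr1os were Zfp248 (r 0.90), the ubiquitin ligase gene Mid1 (0.90) and Nexmif (0.88). With the group means subtracted, the nearest were 3 rows of low level led by 2810428J06Rik (r 0.87), so none of the first 3 was kept. Oip5os1 was nearest to Tnpo1, a nuclear import receptor (0.93), Cnot6l, a deadenylase subunit (0.87), and Zbtb14 (0.87), and after subtraction to Ptp4a2, Rock2 and Stt3a (each between 0.93 and 0.94).

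The genes nearest to the other 5 transcripts had r of 0.96 or more over the libraries. Meg3 was nearest to Spaca6, Gm42583 and Adarb2, a brain relative of the RNA-editing enzymes (each 0.99), and after subtraction to Adarb2, the transcription factor gene Bcl11a and the splicing regulator gene Rbfox2 (0.99, 0.98 and 0.98). Rian was nearest to Ano4, Arpp21 and Pfkp (each 0.99) and after subtraction to Arhgap20, Nfasc, an adhesion molecule of axons, and Ano4 (0.98 or 0.99). Mirg was nearest to Rian (0.97), Gm42440 and Gm42995 (each 0.97), and after subtraction to Gm42440, Gphn and Rian (each 0.96 or 0.95). Snhg11 was nearest to Meis2, Gm45159 and Ano4 (0.99, 0.99 and 0.98), and after subtraction to Zer1, Gm45159 and Cpne6 (each 0.98). Miat was nearest to Mdga2, Frmpd3 and Kcnj3, a potassium channel subunit (0.97, 0.96 and 0.96), and after subtraction to Dtnb, Mapk8ip3 and Mdga2 (0.97, 0.96 and 0.96).

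The interval from the start of Meg3 to the end of Mirg holds 98 annotated genes, of which 12 passed the filter of at least 5 counts in at least 8 libraries. Beside the 3 transcripts themselves, 9 were tested, all 9 had a log2 fold change above 0 and 3 were called higher, against 4.33% of all tested genes. The 3 were Gm37899, an unclassified transcript with a log2 fold change of 1.58 (SE 0.313, FDR = 0.00402), B830012L14Rik, a long noncoding RNA gene with 1.07 (SE 0.244, FDR = 0.00985), and the microRNA gene Mir1188 within Rian with 0.66 (SE 0.228, FDR = 0.0771), all from edgeR. Gm37899 rose from 1.66 ± 0.943 to 5.04 ± 1.87 CPM and B830012L14Rik from 4.19 ± 2.02 to 8.65 ± 2.13 CPM (SD, n = 8 each). Both lie between Rian and Mirg on the same strand and overlap each other in part. The filter can be passed through the 8 KI libraries alone, and Mir431, Rtl1 and Mir539 held only 87, 89 and 93 counts over all libraries. All 9 also lie in the interval of transcripts chosen in view of this difference. Their signs and calls are therefore a description, and nothing is read from the comparison with the share of all genes.

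Of 66 microRNA genes in the interval 16 had no count in any library, 6 were tested, and none had more than 215 counts over all libraries. Of 23 small nucleolar RNA genes 14 had no count and none was tested. The libraries were not made for small RNAs, and these counts are no measure of mature microRNAs. Rtl1, the paternally expressed gene antisense to Rian, was counted at 0 to 0.600 CPM in WT and 0.0840 to 0.936 CPM in KI libraries and was not called (log2 fold change 0.82, SE 0.398, edgeR FDR = 0.215). Mir341, a microRNA gene within Rian, was not called either (0.59, SE 0.386, FDR = 0.391). The paternally expressed ends of the region were nearly silent, with 26 counts of Dlk1 and 7 of Dio3 over all 16 libraries. Begain, just outside, had a log2 fold change of 0.32 (SE 0.145, FDR = 0.179) and Wdr25 −0.22 (SE 0.124, FDR = 0.293).

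**Figure D5:**
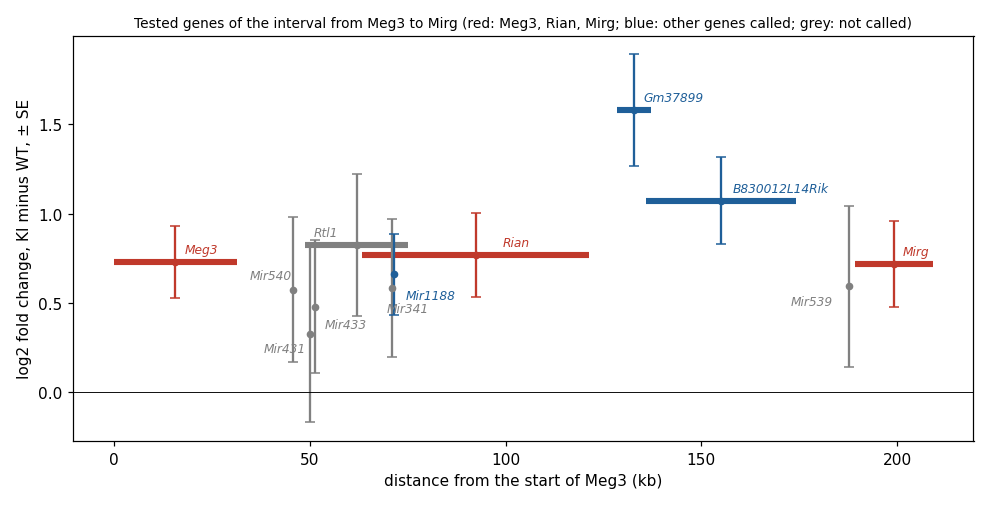
Log2 fold change, KI (APP-NL-G-F) minus WT, with its standard error, for the 12 tested genes from Meg3 to Mirg, by distance from the start of Meg3 in kb, where horizontal bars span each gene. All 12 lie above 0, with Gm37899 (1.58) and B830012L14Rik (1.07) highest. Meg3, Rian and Mirg were chosen in view of this difference, and the filter on counts can be passed through the KI libraries alone.

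Promoters are shown for Meg3, Snhg11 and Cdr1os. Meg3 and Snhg11 moved together from different chromosomes, and Cdr1os did not move with them once the group means were subtracted. Each promoter runs from 250 bases before to 50 bases after the annotated start, from RefSeq on GRCm38.p6, whose coordinates differ from those of GRCm39 above. Capitals mark matches on either strand to the motifs searched.
Meg3, chr12:109540746-109541045, plus strand: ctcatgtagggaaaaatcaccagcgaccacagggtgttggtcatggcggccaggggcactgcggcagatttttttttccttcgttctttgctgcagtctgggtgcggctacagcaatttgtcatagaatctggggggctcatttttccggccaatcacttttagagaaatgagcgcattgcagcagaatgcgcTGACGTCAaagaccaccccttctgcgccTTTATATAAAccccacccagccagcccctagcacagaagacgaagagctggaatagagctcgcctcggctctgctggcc
Snhg11, chr2:158375463-158375762, plus strand: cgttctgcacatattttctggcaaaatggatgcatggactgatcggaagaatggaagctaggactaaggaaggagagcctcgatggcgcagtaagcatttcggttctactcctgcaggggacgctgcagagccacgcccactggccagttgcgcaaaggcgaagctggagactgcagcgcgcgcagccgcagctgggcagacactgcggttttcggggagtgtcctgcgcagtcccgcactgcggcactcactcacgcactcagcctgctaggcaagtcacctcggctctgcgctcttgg
Cdr1os, chrX:61116128-61116427, plus strand: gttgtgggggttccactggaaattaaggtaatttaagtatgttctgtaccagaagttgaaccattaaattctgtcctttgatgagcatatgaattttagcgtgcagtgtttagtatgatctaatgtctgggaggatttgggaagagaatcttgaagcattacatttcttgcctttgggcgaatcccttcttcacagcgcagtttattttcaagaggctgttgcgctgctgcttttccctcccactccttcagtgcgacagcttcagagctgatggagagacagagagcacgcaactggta

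Meg3 held the cyclic AMP response element TGACGTCA, present in 1.79% of 32851 promoters, and TATAAA on both strands in overlapping positions, present in 13.6%. RefSeq gives Meg3 a further promoter, which held neither. The GC box GGGCGG, present in 35.7% of promoters, was found in those of Oip5os1, with 2 matches, and Miat, with 1. None of the 7 transcripts had a match to TGANTCA, the AP-1 site, present in 7.81%, or to TTCAGCACC, a part of the RE1 site, present in 0.371%. Rian, Mirg, Snhg11 and Cdr1os had no match to any of the 5 motifs, so the 5 transcripts that moved together shared none of these letters in this window.

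Genes around miR-7 were described from lists that were drawn up with earlier results of these data known. Over all 18227 tested genes, 790 were called higher and 784 lower. Of 12 genes reported as miR-7 targets in other settings, none was called higher and 3 were called lower in APP-NL-G-F mice, with a median log2 fold change of −0.10 over the 12. The 3 were Fos, at 1263 ± 857.2 CPM in WT and 352.7 ± 162.8 CPM in KI libraries (log2 fold change −1.61, SE 0.339, edgeR FDR = 0.00600), Klf4 (−1.02, SE 0.309, FDR = 0.0459), and the inflammasome sensor Nlrp3 (−0.67, SE 0.148, FDR = 0.00839). Fos and Klf4 are also immediate early genes, which respond within minutes to many stimuli. Other targets were not called, among them Irs2, an adaptor of the insulin receptor (−0.10, SE 0.106).

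Of 10 tested genes of the making, action and destruction of miR-7, Cdr1 was called higher and Mir7-1 lower. Cdr1 lies inside a Cdr1os exon and their reads cannot be told apart with certainty, so its call is not a result separate from Cdr1os. Mir7-1, a hairpin within an intron of Hnrnpk, had at most 14 counts in a library, 0.825 ± 0.166 CPM in WT and 0.373 ± 0.258 CPM in KI libraries (log2 fold change −1.11, SE 0.309, edgeR FDR = 0.0307). Its host Hnrnpk was lower by less than the fold rule asks (−0.19, SE 0.0495, FDR = 0.0195). Zswim8, the adaptor of the ubiquitin ligase through which Oip5os1 acts on miR-7, was flat (−0.04, SE 0.0654, FDR = 0.809), as were Ago1 (0.01, SE 0.0453) and Ago2 (0.01, SE 0.0479), the proteins that carry microRNAs. Mature miR-7 was not measured.

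Protein partners of Meg3 and Miat were not called. Of 4 Polycomb genes, Eed had the largest difference (−0.29, SE 0.0508, edgeR FDR = 0.00148), which is under the fold rule, and Ezh2 had −0.11 (SE 0.0918, FDR = 0.518). Of 3 tested genes of splicing factors that bind Miat, Sf1 had −0.26 (SE 0.0467, FDR = 0.00225), also under the fold rule, and Celf3, a neuronal factor, had 0.40 (SE 0.168, FDR = 0.150).

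Other long noncoding RNAs known from brain were listed with earlier results of these data known. Of 14 listed, 12 were tested, 8 were called higher and none lower, with a median log2 fold change of 0.73. Of all tested long noncoding RNA genes 5.98% were called higher and 22% lower, with a median of −0.121. They were led by Mir124-2hg, host of the neuronal microRNA miR-124, at 5.17 ± 1.71 CPM in WT and 10.3 ± 2.85 CPM in KI libraries (log2 fold change 1.01, SE 0.186, edgeR FDR = 0.00245), Sox2ot (0.77, SE 0.149, FDR = 0.00336), Kcnq1ot1, an imprinted RNA (0.72, SE 0.165, FDR = 0.0102), Dlx6os1, an RNA of interneurons (0.78, SE 0.184, FDR = 0.0124), and C130071C03Rik (0.79, SE 0.200, FDR = 0.0179). The remaining 3 were Dlx1as, Mir124a-1hg and Rmst. Of 19 broadly expressed long noncoding RNAs none was called higher and 3 were called lower, with a median of −0.12. The 3 were Neat1, the scaffold of paraspeckles (−1.27, SE 0.200, FDR = 0.000825), and the small nucleolar RNA hosts Snhg1 (−0.87, SE 0.165, FDR = 0.00294) and Snhg15 (−0.53, SE 0.186, FDR = 0.0821). Malat1, the most abundant of the list, was at 10020 ± 1860 CPM in WT and 9416 ± 814.9 CPM in KI libraries and was not called.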

How the data were processed

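Total RNA of CD11b-enriched OB microglia was sequenced in 16 libraries. Per the study's methods, the authors mapped read pairs with STAR 2.7.8 to GRCm39, extended by the human App gene and annotated by gencode vM32. They deposited raw counts per gene, 1 column per library. The strand setting of the counting is not given in the sources used here. Each library counts as 1 replicate, and nothing in the labels says that libraries came from separate animals, so the tests measure the spread between these libraries.

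Genes that reached 5 counts in 8 or more libraries were kept (18227 of 57010), normalized by TMM and fitted with edgeR's quasi-likelihood test (edgeR 4.0.16, R 4.3.3) with sex and genotype as additive terms. Interaction and within-sex differences came from the same test with genotype-by-sex terms. Genes were called at a Benjamini-Hochberg FDR below 0.1 over all tested genes and an absolute log2 fold change above 0.5. SE was obtained as the size of the log2 fold change over the root of F, and log2 CPM carries a prior count of 2. The depth per library was 9052932 to 18117286 counts. Precision rests on these counts and on the spread between libraries, which the fit estimates together. Positions and exonic lengths came from gencode vM39 on GRCm39, which held 96.8% of the rows.

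The 7 transcripts, the gene lists and the alternatives were chosen with earlier results of these data known. Named are the 7 transcripts, genes called in each list (at most 5, by smallest p), called genes between Meg3 and Mirg, genes overlapping one of the 7, and the 3 genes of highest Pearson r to each, before and after the group means were subtracted. Genes named beyond this rule, such as list members that were not called, were chosen after their values were seen. Alternatives were another normalization (RLE), DESeq2 1.42.0, limma voom (limma 3.58.1), other filters, no sex term, a replicate block, neuron marker terms and leaving out each library. Tested on simulated data with 18227 genes, the genotype fit recovered 87% of 100 genes changed by 1 on the log2 scale, the sex fit 81% and the interaction fit 40%. No pair of libraries held identical counts. Values of some listed genes are left out of the text.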

Additional observations from a re-analysis of the deposited data

Results flagged for a closer look

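In a group of 4 libraries, 1 library stood apart from the other 3 by Dixon's criterion in 2 of 32 cases (the 7 transcripts and Cdr1 in 4 groups each), where chance alone would mark about 1 in 20. Oip5os1 was at 152.8 CPM in WT female replicate 4, against 176.4 to 178.3 CPM in the other WT females. Rian was at 20.2 CPM in WT male replicate 2, against 46.9 to 48.7 CPM in the other WT males, and Meg3, Mirg, Snhg11 and Miat were also lowest of their group in that library.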

How the results depend on the processing

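Of 1574 genes called between genotypes, 153 were called with the neuron marker term, 38 with the inhibitory neuron marker term, 2503 in replicates 1 and 2 alone and 80 in replicates 3 and 4 alone. Of the 7 transcripts 6 met the rule, against 1 with either marker term and 1 in replicates 3 and 4 alone. Genes called in the genotype-by-sex interaction numbered 5, against 81 by DESeq2, 1 by limma voom, 3 at 10 counts in 4 libraries, 470 without a filter and 3 with the replicate block. Genes called between sexes numbered 11, against 57 without a filter. The inhibitory neuron marker term turned the genotype difference of Meg3 (−0.11), Rian (−0.20), Mirg (−0.13) and Miat (−0.082). The cause of these shifts was not tested. Leaving out each library in turn gave 1101 to 2187 genotype calls, 3 to 6 of the 7 transcripts, 1 to 43 interaction calls and 5 to 9 sex calls. It gave log2 genotype differences of 0.94 to 1.01 for Cdr1os, 0.13 to 0.18 for Oip5os1 and 0.64 to 0.85 for Meg3, and turned no sign among the genotype, sex and interaction estimates of the 7.

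With the replicate block 1562 genes and 6 of the 7 transcripts were called between genotypes and 11 genes between sexes. The numbers share no stated animal, litter or day: the correlation of same-numbered deviations from the group means ran from −0.33 to 0.29 and exceeded 0.1 in 8 of 24 pairs, so the numbers were not taken as pairs. Even so, 8 of 16 libraries correlated best with their own number, and replicates 3 and 4 differed from 1 and 2 at 133 genes. Mirg, the least abundant of the 7, had the widest genotype error (SE 0.241), but Miat (SE 0.180) was below Meg3 (SE 0.202).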
